A study of Mus musculus with 12 samples.

Results

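The genes described here build and run the secretory and endosomal membrane traffic of the cell. They were chosen by symbol alone, as the probes whose annotation gave a single gene symbol of the families Sec61, Sec62, Sec63, Sec11, Spcs and Ssr (translocon and signal peptidase), Sec13, Sec23, Sec24 and Sec31 (COPII coat), Cop and Tmed (COPI coat and cargo receptors), Golga, Arf, Arl, Rab, Sec22, Stx, Vamp and Gosr (SNAREs), Ap1 to Ap3, Snx and Vps. The rule took 181 genes on 381 probes, of 10225 genes on 18511 probes with a single symbol. A value was given for 177 of them in at least 1 sample, and 173 had values in at least 4 samples of each group and were tested. Ap3b2, Rab38, Snx10 and Vamp2 had no value in any sample, and Tmed6, Rab17, Rab20 and Rab33b had too few. Not every symbol of a family marks a traffic protein: Vps72 is a chromatin protein, and Sec13 is also part of the nuclear pore.

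Secretory proteins enter the endoplasmic reticulum through the Sec61 translocon, lose their signal peptide to the signal peptidase and leave in COPII vesicles, while COPI vesicles carry cargo and escaped residents back. Rab and Arf GTPases mark each membrane and recruit its coats and tethers, SNAREs drive fusion, and adaptors, sorting nexins and Vps complexes sort cargo between the Golgi, endosomes and lysosomes. Osteoblasts depend on this route for the export of procollagen, whose size calls for enlarged COPII carriers.

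The cells were MC3T3-E1, an osteoblast-like clonal line from mouse calvaria, grown to confluence on glass slides in medium with 5% serum. The 6 shear samples came from monolayers under pulsatile flow in a parallel plate chamber, for 5 h at 1 Hz and a mean stress of 5 dyn per cm2, with 1% serum in the medium. The 6 control samples were held static in the same set up. Each of 6 spotted 2-colour arrays took 2 samples of 1 condition, so array and condition cannot be told apart within an array, and each group rests on 3 arrays. That replicates 1 and 2, 3 and 4, and 5 and 6 shared an array was inferred from the design and the dyes. Whether the samples of a group were separate cultures is not stated in the labels, and the p-values cover only the spread seen between samples, which may be a technical one.

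The deposited values are log2 fluorescence relative to the median of a block of 598 features. Each sample was then centred, so in the levels given here 0 is the median of the sample's measured features. Between 18434 (control 4) and 23790 (control 1) of 28704 features had a value in a sample, and between 322 (control 4) and 351 of the member probes. Controls 3 and 4, which share an array, had the fewest in both respects. Of 12 osteoblast marker names, 5 had enough values. The type I collagen chain Col1a2, the collagen chaperone Serpinh1 and Sparc had control means of 4.40, 4.50 and 5.48, Col1a1 1.65 and alkaline phosphatase (Alpl) -1.01. Runx2, Sp7, Akp2, Bglap, Ibsp, Spp1 and Postn had no value. A name without a value may lack a probe, so this is not read as lack of expression. None of the 5 passed, with changes from -0.25 to 0.23, and their summed level was 6.03 to 7.38 in control and 6.12 to 7.36 in shear samples (log2). No measured marker of macrophages and osteoclasts (4 of 8 names), endothelium (4 of 6), adipocytes (3 of 5) or muscle (3 of 4) passed either. Their summed levels, control then shear, were 2.53 to 3.29 and 2.21 to 3.56 for the first list, 2.03 to 2.84 and 2.42 to 2.91 for the second, 0.97 to 1.75 and 1.20 to 2.13 for the third and 3.35 to 4.36 and 0.65 to 4.62 for muscle. A missing value added nothing to a sum. Tnnt1, the muscle marker with the highest control mean (3.79), had values in only 4 shear samples, as had Lyz2 of the first list. Retn of the third list and Mylpf of muscle had values in only 4 controls. The sums therefore do not all cover the same genes, and the low 0.65 of muscle is not read as a fall. Fewer cells of a type and less RNA per cell cannot be told apart in such samples.

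The comparison asked which of these genes differed after 5 h of flow. A single member passed the test: Snx9, a sorting nexin that bends membrane and works with dynamin in endocytosis, rose 2.20-fold. With limma and Benjamini-Hochberg adjustment over 15601 features at a threshold of 0.05, that is 1 of 173 members, or 0.578%, against 1.49% of all features. No member passed in the lower direction, where 0.205% of all features did, and 1.28% of all features passed in the higher direction. Without adjustment, 21 members (12.1%) had p under 0.05 with a higher mean under shear, against 10.4% of all features, and 4 (2.31%) with a lower mean, against 3.39%. All shear samples lay above all controls for 11 members, or 6.36%, beside 5.76% of all features. Those 11 were Arf4, Arl1, Arl3, Rab1a, Rab2a, Rab3b, Rab10, Snx9, Snx13, Tmed5 and Vps26c. No member had all shear samples below all controls, as 1.6% of all features had. The shares of members stood near the shares of all features or below them.

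The median log2 change of the members was 0.10, beside 0.11 over all features, and 108 of the 173 members had a value above 0, beside 9515 of the 15601 features. This common offset depends on the scaling. With samples centred on features measured in all of them, both medians became -0.02, and with cyclic loess they were -0.07 for the members and -0.01 for all features. Small changes are therefore best read against 0.11 and not against 0. The median standard error of a member's log2 change was 0.28, beside 0.30 over all features. For 99 of the 173 (57.2%) the 95% interval of the change lay within -1 to 1, which is less than a doubling or a halving. The same held for 54.7% of all features. For the other members a change of that size was not bounded by these arrays. The intervals count samples and not arrays, so they can be too narrow.

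**Figure D1:**
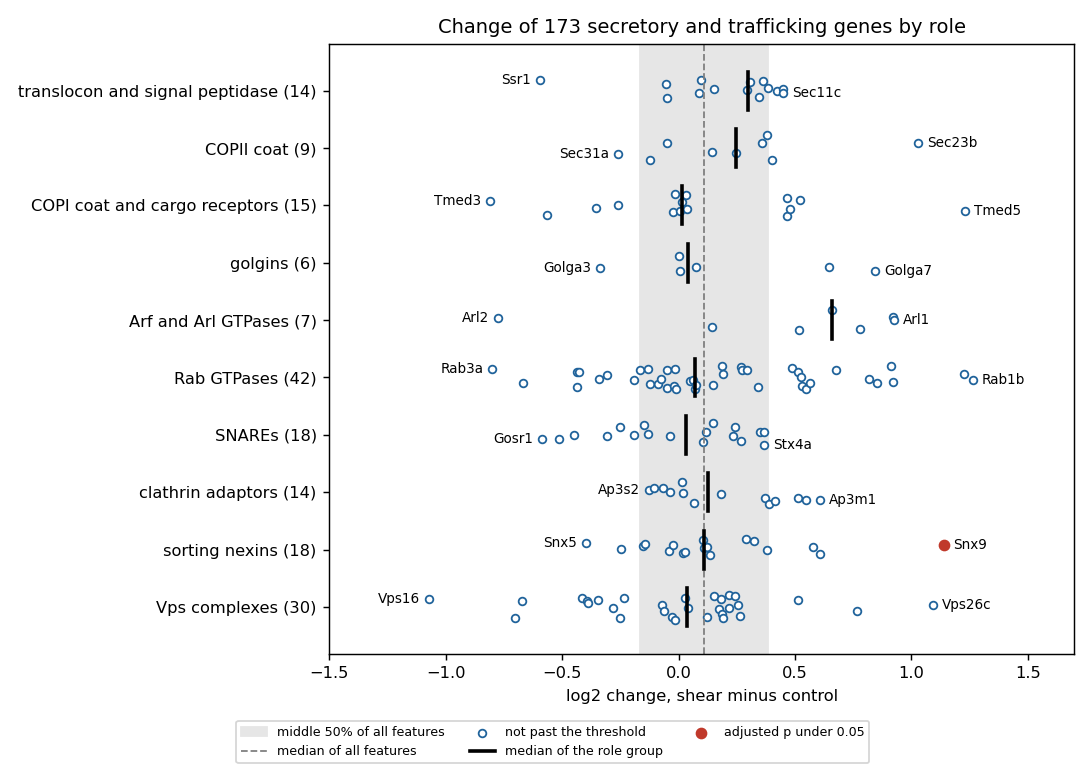
Log2 change (shear minus control, horizontal axis) of the 173 tested members, 1 point per gene, in 10 role groups with the number tested. Black bars are group medians, the grey band is the middle 50% of all features and the dashed line their median of 0.11; only Snx9 is filled as past the threshold, and the Arf and Arl median of 0.66 lies outside the band.

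At the entry to the pathway, no translocon or signal peptidase gene passed the test, adjusted or not. Their 14 changes ran from -0.59 (Ssr1, a subunit of the translocon-associated protein complex) to 0.45 (Sec11c, a catalytic signal peptidase subunit), with a median of 0.30, and 11 of 14 were above 0. The median was 0.16 with common centring and 0.07 with cyclic loess. Sec61a1, the main channel subunit, had 0.15 with a 95% interval of -0.71 to 1.01. Sec61a2, its paralog, had 0.45 and an interval of -0.15 to 1.04. The remaining members of smallest p were Sec11a at 0.39 and Ssr4 at 0.34. Ssr1 had 2.20, 2.73 and 3.27 as lowest, median and highest control values and 0.58, 2.72 and 3.22 under shear. Its group medians were thus nearly equal. Without the array of shear 5 and 6 its change was 0.17, and with its probes averaged it was 0.12.

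The COPII coat builds the vesicles that leave the endoplasmic reticulum. None of its 9 measured genes passed, and their median change was 0.25. Sec23b, an inner coat subunit that works with Sec24 in cargo capture, had the highest change, 1.03 ± 0.48 (SE, n = 6 per group; limma adjusted p = 0.355). Its lowest, median and highest values were -1.68, 0.46 and 0.75 in control and 0.15, 0.95 and 1.58 in shear samples, so the groups overlapped. Controls 3 and 4, of 1 array, were the lowest at -0.87 and -1.68, and without that array the change was 0.42. Its paralog Sec23a had 0.14. Among the cargo-binding Sec24 subunits the changes were 0.36 for Sec24a, 0.25 for Sec24b, -0.12 for Sec24c and 0.40 for Sec24d. In the outer coat, Sec13 had 0.38 and its partner Sec31a -0.26. The sign of Sec13 rested on the probe, as the mean of its probes gave -0.20.

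Among the COPI coat and the p24 cargo receptors, none of 15 genes passed on its chosen probe, and the median was 0.01, or -0.12 with common centring. Coatomer subunits had values from -0.57 (Copg2) and -0.26 (Copa) to 0.47 (Copb1 and Copz2). The p24 receptors, which the Tmed genes encode and which cycle between the endoplasmic reticulum and the Golgi, ran from -0.81 for Tmed3 through 0.01 for Tmed10 and 0.52 for Tmed2 to 1.23 for Tmed5. In Tmed3 the array of shear 3 and 4 was low, at 2.05 and 1.90 beside 3.40 to 4.88 in the other shear samples, and without it the change was -0.059. Tmed5 had -1.66, -0.70 and -0.26 in control and -0.06, 0.35 and 0.81 in shear samples as lowest, median and highest. Every shear sample stood above every control, with a change of 1.23 ± 0.33 (SE) and adjusted p = 0.0898 (limma). The changes on its other probes were 1.74 ± 0.24 and 1.35 ± 0.27 (SE), the latter with values in 4 controls, and on both the groups were again apart. When every probe was tested as a feature of its own, both passed, with adjusted p = 0.00360 and 0.0319 (limma). In that fit 3 of 343 member probes (0.875%) passed, the third being the chosen probe of Snx9, against 1.62% of all probes. Averaging the probes of each gene that had values in all samples was an alternative chosen after seeing the data. It gave Tmed5 1.48 with limma adjusted p = 0.0101, without the probe that had values in 4 controls. So the call of Tmed5 depends on which probe stands for the gene, and its direction was the same on all 3 probes.

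**Figure D2:**
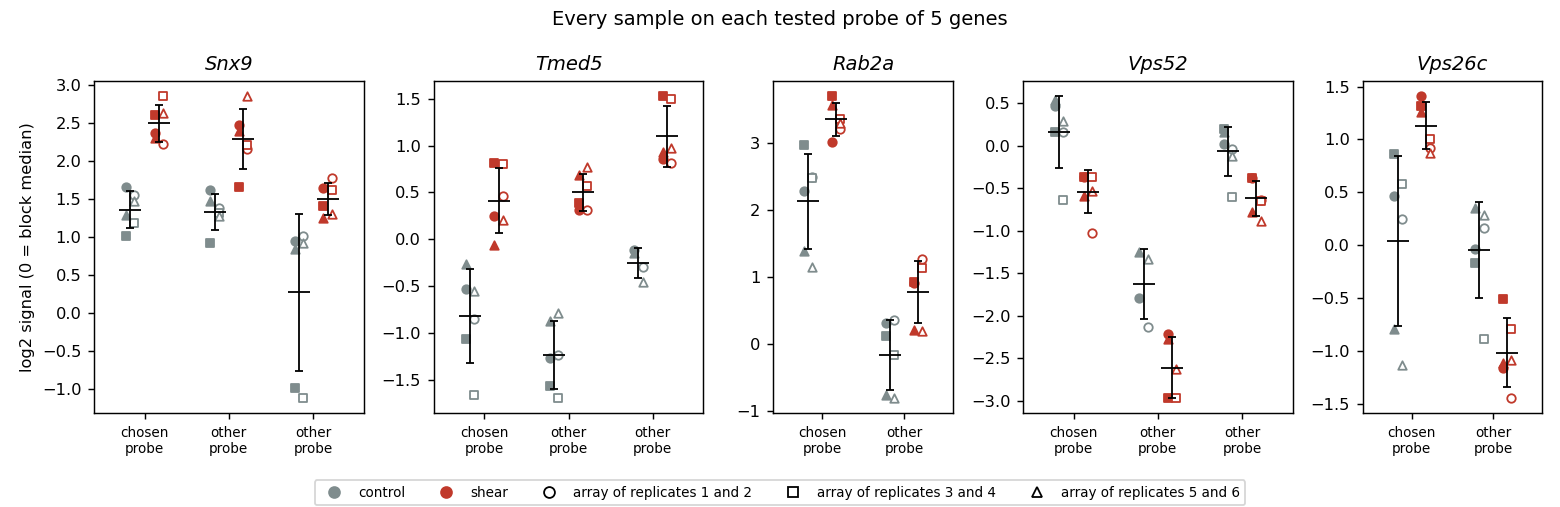
Log2 signal (vertical axis) of every sample on each tested probe of Snx9, Tmed5, Rab2a, Vps52 and Vps26c, controls in grey and shear in red. The axis label names the block median, but the values were centred, so 0 is the sample's median. Shapes mark the arrays, filled points odd and open points even replicates, and crossbars with whiskers the mean and SD; the probes of Snx9 and Tmed5 all part the groups, while those of Vps26c run in opposite directions.

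The golgins tether vesicles at the Golgi, and none of the 6 Golga genes passed. Golga7, which despite its name is a partner of a palmitoylating enzyme and no coiled-coil tether, had the highest change at 0.84 ± 0.27 (SE; limma adjusted p = 0.148), and 0.40 on its other probe. Golga1 followed at 0.65, but its other probe gave -0.52 and the mean of its probes 0.065. Golga2 and Golga4 had 0.00 each, Golga5 0.07 and Golga3 -0.34, which was -0.0042 without the array of control 3 and 4. The golgin median of 0.04 became -0.10 with common centring.

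Arf and Arl GTPases recruit coats and tethers to Golgi membranes, and their median change of 0.66 was the highest of the 10 role groups, with 0.52 under common centring, 0.47 with cyclic loess and 0.51 with quantile normalization. None of the 7 passed after adjustment. Of them, 4 had unadjusted p under 0.05 with a higher mean (10.4% of all features had), and for 3 all shear samples lay above all controls (5.76% of all features). With 7 genes, no share is read from these counts. Arl1, which brings golgins to the trans-Golgi, had -0.68, -0.53 and -0.41 in the 4 controls with a value and 0.25, 0.33 and 0.60 in shear samples, a change of 0.92 ± 0.28 (SE; limma adjusted p = 0.136). Arl3, known for releasing lipid-modified cargo into cilia, had -3.13, -2.67 and -2.31 in 5 controls and -2.04, -1.86 and -1.53 under shear, with a change of 0.92 and limma adjusted p = 0.107. In both genes all shear samples lay above all controls, by a wide margin in Arl1 and a narrow one in Arl3. The controls of Arl1 without a value were 3 and 4, of 1 array. Arl3 was low, near Rab17 and Rab20 (control means -2.86 and -2.96), which had too few values to be tested. Arf4, a Golgi Arf of the class II, had 2.11, 2.90 and 3.13 against 3.36, 3.66 and 3.85, a change of 0.78, while its other probes gave 0.54 and -0.20. Arf2 had 0.66, Arf1 0.52 and Arf3 0.14. Arl2, which acts in tubulin folding, went against the others with -0.77 ± 0.37 (SE; limma adjusted p = 0.367).

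Rab GTPases are the largest family here, with 42 of 46 genes tested. None passed after adjustment, 9 had an unadjusted p under 0.05 with a higher mean under shear (10.4% of all features had) and none with a lower mean (3.39% of all features). Their median change was 0.07, or -0.03 with common centring, and the range ran from -0.80 (Rab3a) to 1.26 (Rab1b). Of those of smallest p, Rab2a, which acts between the endoplasmic reticulum and the Golgi, had 1.15, 2.37 and 2.97 in control and 3.01, 3.32 and 3.69 in shear samples. All shear samples lay above all controls, narrowly, with a change of 1.23 ± 0.35 (SE; limma adjusted p = 0.108). Controls 5 and 6, of 1 array, were the lowest at 1.39 and 1.15, and over samples and arrays left out the change ran from 0.80 to 1.52. The other tested probe of Rab2a gave 0.93 with overlapping groups.

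Rab1a, which tethers vesicles arriving at the Golgi, had 0.20, 0.93 and 1.72 in control and 1.76, 1.86 and 2.09 under shear, a change of 0.91 ± 0.30 (SE; limma adjusted p = 0.163). Its shear samples were close together and the controls were not. Its paralog Rab1b had the highest change of the family, 1.26 ± 0.53 (SE), but only 4 control values, from -2.09 to 0.69, and shear values from -0.16 to 1.36. Without the array of control 3 and 4, which then leaves it 2 control values, its change was 2.34 with limma adjusted p = 0.0498, and it was then the only member to pass. Without the array of control 1 and 2 it was 0.19. Other Rabs of the early secretory route had 0.55 (Rab6a), 0.56 (Rab18), -0.31 (Rab2b), -0.09 (Rab30) and -0.44 (Rab33a).

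Among Rabs of the plasma membrane and endosomes, Rab3b, of the family of regulated exocytosis, had -2.26, -1.49 and -1.28 in control and -1.25, -0.63 and -0.35 under shear. The groups were apart by a small margin, with a change of 0.92 ± 0.29 (SE; limma adjusted p = 0.144), and its other probes gave 1.10 and 0.26. Rab3a, its relative, had the lowest change of the family at -0.80 ± 0.39 (SE), and Rab3d had 0.06. Rab10, a regulator of exocytosis and recycling, had 1.27, 1.92 and 2.02 against 2.09, 2.41 and 2.88, a change of 0.68 with limma adjusted p = 0.280. The recycling Rabs Rab11a and Rab11b had 0.53 and 0.51, the early endosome Rabs Rab5a, Rab5b and Rab5c had 0.85, -0.07 and 0.49, and Rab7, the late endosome Rab, had 0.27. Controls 3 and 4 of Rab5a stood at 0.30 and 0.23, the other controls at 2.15 to 2.32 and the shear samples at 2.30 to 2.58, so its change rests on that array, and its other probes gave 1.38 and 0.62. Another probe of Rab7 gave -1.43 ± 0.37 (SE; limma adjusted p = 0.0755 with every probe tested) and the third 0.79 ± 1.45, so no direction can be given for Rab7. Rab23, of ciliary and hedgehog signalling, had 0.82.

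SNAREs carry out fusion, and none of 18 passed. Their changes ran from -0.59 to 0.37 with a median of 0.03, or -0.10 with common centring. For 12 of 18 the 95% interval lay within -1 to 1, beside 54.7% of all features. The lowest was Gosr1, a Golgi SNARE, with 0.86, 1.21 and 1.48 in control and -0.16, 0.71 and 1.04 under shear, a change of -0.59 ± 0.26 (SE; limma adjusted p = 0.322), which was -0.31 without the array of shear 5 and 6. In all, 4 of its 6 shear samples lay below all controls. Stx17, the syntaxin of autophagosomes, had -0.51, with -0.29 and -0.48 on its other probes. The highest was Stx4a, the plasma membrane syntaxin, at 0.37.

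Of 14 clathrin adaptor subunits none passed, and for 11 of them the interval lay within -1 to 1 (54.7% of all features). The highest, Ap3m1 of the lysosome-directed AP-3 complex, had 0.61 ± 0.23 (SE; limma adjusted p = 0.252) on its chosen probe, but its 4 other probes gave -0.39 to -0.08 and the mean of its probes -0.034. Ap2b1, of the AP-2 complex of endocytosis, had 0.55, and Ap1g1, of the AP-1 complex at the trans-Golgi, 0.51. The lowest, Ap3s2, had -0.13.

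Sorting nexins bind phosphoinositides on endosomes, and here lay the member that passed. Snx9 had 1.01, 1.38 and 1.66 as lowest, median and highest control values and 2.22, 2.49 and 2.86 under shear. The groups were apart by more than the SD within either, with means of 1.36 ± 0.24 (SD, n = 6) and 2.50 ± 0.24 (SD, n = 6). The change was 1.14 ± 0.24 (SE), with a 95% interval of 0.63 to 1.66 and adjusted p = 0.0340 (limma, Benjamini-Hochberg). Its other tested probes gave 0.97 ± 0.32 and 1.23 ± 0.40 (SE), neither past the threshold by itself, and on each all shear samples lay above all controls. On the probe that gave 1.23, controls 3 and 4 stood at -0.99 and -1.12, far below the other controls. A further probe had a value in 4 controls and in no shear sample and was not tested, so its missing values run against the other probes. Over 30 alternatives the change of Snx9 stayed between 0.92 and 1.26, and the call was lost in 16, with adjusted p from 0.000968 to 0.186. Those 16 were quantile normalization, the mean of its probes, the fit on 3 array means per group (limma adjusted p = 0.101), the removal of control 2, 3, 5 or 6 or of shear 1, 3, 4 or 6, and the removal of any array other than that of control 1 and 2.

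The remaining sorting nexins tested had changes from -0.40 (Snx5, a membrane-bending partner of retromer) to 0.61 (Snx3, the retromer cargo adaptor). Snx13 had 1.17, 1.56 and 1.92 in control and 2.01, 2.08 and 2.35 under shear, so the groups did not overlap, with a change of 0.58 ± 0.22 (SE; limma adjusted p = 0.247). Its other tested probe gave -0.25, and the mean of its probes 0.16. Snx33, of the same SH3-domain subfamily as Snx9, had 0.11, but its other probes gave -0.75 and 0.35, so no direction can be given for it. The sign of Snx5 changed to 0.10 when its probes were averaged.

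The Vps genes hold the tethers and sorting complexes of endosomes and lysosomes, and none of 30 passed. Their median change was 0.03, or -0.10 with common centring. For 22 the 95% interval lay within -1 to 1 (54.7% of all features). Of the 4 members with a lower mean and an unadjusted p under 0.05, 3 were Vps genes (Vps16, Vps39 and Vps52) and the other was Gosr1. Among all features 3.39% had such a p with a lower mean, and with 30 genes no share is read from this count. Vps39, of the HOPS tether of late endosomes, had 0.02, 0.75 and 0.97 in control and -0.44, -0.09 and 0.30 under shear, a change of -0.67 ± 0.28 (SE; limma adjusted p = 0.293). The further HOPS subunits had -1.07 (Vps16, which was -0.54 without the array of control 3 and 4), -0.40 (Vps41), -0.03 (Vps33a), 0.12 (Vps11) and 0.21 (Vps18). Other probes of Vps41 gave 0.82, -0.28 and -0.23, and the other probe of Vps11 gave -0.08. Vps52, of the GARP tether that receives endosomal vesicles at the Golgi, had -0.64, 0.22 and 0.53 in control and -1.03, -0.45 and -0.36 under shear, a change of -0.70 ± 0.30 (SE; limma adjusted p = 0.317). Its other probes gave -0.97 and -0.55, the same direction on all 3. Its partners had -0.42 (Vps53), -0.06 (Vps54) and 0.19 (Vps51) on their chosen probes. The other probes of Vps53 were also below 0, at -0.74 to -0.20. Those of Vps54 gave 0.15 to 0.65 and those of Vps51 -0.86 to 0.33, so no direction can be given for Vps54 or Vps51.

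The retromer subunits, which retrieve receptors from endosomes, had 0.26 (Vps35), 0.15 (Vps26a), -0.24 (Vps26b) and 0.19 (Vps29). Vps26c, the corresponding subunit of the retriever complex, had -1.13, 0.36 and 0.86 in control and 0.87, 1.13 and 1.41 under shear on its chosen probe, a change of 1.09 ± 0.33 (SE; limma adjusted p = 0.128). Its other probe gave -0.97 ± 0.31 (SE), so no direction can be given for this gene.

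Probes of 1 gene disagreed often, among the members as elsewhere. For 99 members with more than 1 tested probe, 105 of 170 other probes (61.8%) had the sign of the chosen probe, beside 65.9% over 4049 named genes. The Pearson correlation between chosen and other probes was 0.41 for the members and 0.42 for all named genes, given as a description, since all probes share the same 12 samples. In 51 of the 99 members all probes had the same sign.

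**Figure D3:**
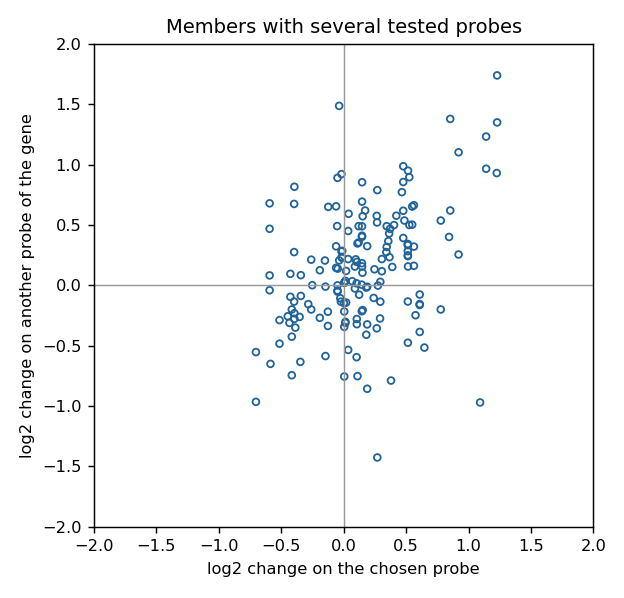
Log2 change on the chosen probe (horizontal axis) against that on another tested probe of the same gene (vertical axis), 170 points from 99 members. Points in the upper right and lower left have the same sign on both probes, as 105 of the 170 do.

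Close paralogs and partner subunits allow changes to be compared within a family. Of 36 pairs listed, 28 had enough values, and the difference of their log2 values was tested over samples. None passed after adjustment over the pairs (exact permutation test, two-sided), and 4 had an unadjusted p under 0.05. Gosr1 minus Gosr2 had the smallest p, with a mean of -1.23 ± 0.20 (SD, n = 6) in control and -1.96 ± 0.33 in shear samples, a difference of -0.73 (exact permutation p = 0.00433, adjusted 0.121). Rab2a minus Rab2b differed by 1.53 (exact permutation p = 0.0173, adjusted 0.222), as Rab2a had 1.23 and Rab2b -0.31. Rab5a minus Rab5b differed by 0.93 and Arf1 minus Arf3 by 0.37, with exact permutation p = 0.0238 and 0.0368. Samples of 1 array are not independent, and on array means these 4 pairs had exact permutation p = 0.10, 0.20, 0.20 and 0.10, in the order given. The design could hardly pass a pair. The smallest p possible was 0.00216 for the 24 pairs with all 12 samples and up to 0.0286 for the others, so that 1 fully separated pair would reach an adjusted 0.0606, and over array means it was 0.10.

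**Figure D4:**
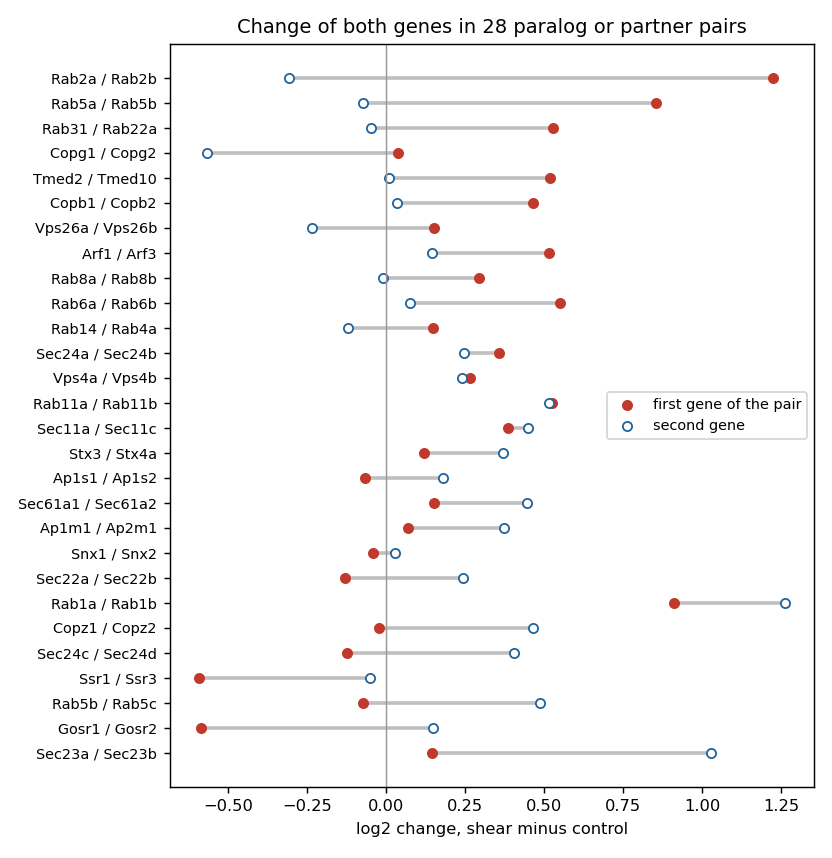
Log2 change under shear (horizontal axis) of both genes of each of 28 pairs, ordered by the difference between them, the gene named first in red and the other in blue outline. The widest gap is that of Rab2a at 1.23 and Rab2b at -0.31, and Rab11a and Rab11b lie together at 0.53 and 0.51.

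Of 109 other genes of the pathway listed by function, 90 were tested and a single gene passed. Rabggtb, the catalytic subunit of the geranylgeranyl transferase that lipid-anchors Rabs, rose from 0.68 ± 0.31 (SD, n = 6) to 1.64 ± 0.25, a change of 0.97 ± 0.23 (SE; limma adjusted p = 0.0482), and its call was lost in 24 of 30 alternatives, among them the removal of any sample or array. The other subunit, Rabggta, had -0.62 ± 0.24 (SE; limma adjusted p = 0.259). The next smallest p-values belonged to Cog4 of the Golgi tether COG (-0.83), the KDEL receptor Kdelr2 (1.18), the Arf exchange factor Arfgef1 (1.10) and the exocyst subunit Exoc5 (0.96), none of which passed in the main fit. Over the 30 alternatives Cog4 passed in 4, with a lower mean, Kdelr2 and Arfgef1 in 2 each and Exoc5 in 1. Which gene was called thus depended on the processing. In all, 9 of the 90 had an unadjusted p under 0.05 with a higher and 3 with a lower mean, around a median of 0.18. These counts, like the single call, are near the shares of all features (10.4%, 3.39% and 1.49%) and are no result about the pathway.

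Promoters were read for features the symbols did not fix. The RefSeq table (GRCm38.p6) held 176 windows of 300 bases for 150 of the 181 members. Snx9, the member that passed, and Rab2a had no window, so the shares below do not cover them. The letters ACGTG, the core of elements bound by factors of the unfolded protein response, stood on either strand in 40.3% of them, beside 20.9% of windows of protein-coding genes and 19.6% of all windows. CCACG, an arm of the endoplasmic reticulum stress response element, stood in 50.0%, beside 37.4% of coding and 32.8% of all windows. TGACGT, the core of the cyclic AMP response element, stood in 17.6%, beside 8.49% and 7.51%, and CCAAT, the other arm of the stress element, in 38.6%, beside 38.2% and 37.4%. ACGTG can overlap both CCACG and TGACGT. The median GC content was 61.2% in members' windows and 56.3% in coding ones, and its part in these shares was not tested. A match describes letters and is no evidence of binding.

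For 4 of the members whose groups did not overlap, chosen after their values were seen, the window is shown with the 250 bases before the annotated start, 5′ to 3′ on the gene's strand, to set windows with and without these letters side by side. Capitals mark CCACG or its reverse complement CGTGG. The windows lie at chr5:108132621-108132870 on the minus strand for Tmed5, chr10:88731164-88731413 on the plus strand for Arl1, chr19:46573183-46573432 on the minus strand for Arl3 and chr11:20201162-20201411 on the plus strand for Rab1a.
Tmed5: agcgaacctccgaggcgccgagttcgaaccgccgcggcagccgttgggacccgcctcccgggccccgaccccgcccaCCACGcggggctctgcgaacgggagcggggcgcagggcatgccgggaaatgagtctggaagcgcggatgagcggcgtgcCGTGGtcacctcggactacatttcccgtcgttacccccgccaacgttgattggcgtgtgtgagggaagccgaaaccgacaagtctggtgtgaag
Arl1: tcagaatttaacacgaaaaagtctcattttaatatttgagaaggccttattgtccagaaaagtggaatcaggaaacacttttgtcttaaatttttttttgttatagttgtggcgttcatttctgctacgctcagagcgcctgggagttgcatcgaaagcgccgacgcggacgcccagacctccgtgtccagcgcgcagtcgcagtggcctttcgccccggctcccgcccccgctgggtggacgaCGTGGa
Arl3: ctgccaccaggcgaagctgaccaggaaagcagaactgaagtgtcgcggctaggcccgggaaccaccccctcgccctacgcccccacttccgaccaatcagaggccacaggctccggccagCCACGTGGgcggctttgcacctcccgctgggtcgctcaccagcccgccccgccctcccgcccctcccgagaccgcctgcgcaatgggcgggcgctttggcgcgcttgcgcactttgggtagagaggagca
Rab1a: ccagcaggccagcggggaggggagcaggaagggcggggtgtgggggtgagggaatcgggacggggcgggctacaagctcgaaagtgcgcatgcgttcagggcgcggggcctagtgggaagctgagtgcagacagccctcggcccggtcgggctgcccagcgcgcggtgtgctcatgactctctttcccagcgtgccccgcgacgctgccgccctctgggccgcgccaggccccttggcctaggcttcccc
The Arl3 window holds both letter orders overlapping as CCACGTGG, 127 bases before the start at the nearest, Tmed5 holds a match in each orientation, Arl1 a single match close to the start, and Rab1a none. Their log2 changes were 0.92, 1.23, 0.92 and 0.91. All 4 genes were chosen with shear samples above all controls, so these changes say nothing about the letters.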

How the data were processed

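RNA of 12 samples was read on 6 spotted 2-colour arrays, labelled with Cy5 or Cy3. The authors deposited a table of log2 values. In all 576 combinations of block and sample they came out as whole-number fluorescence over a block median (tolerance 0.002). Scanner, background correction and the handling of missing spots: not given in the sources used here. Symbols came from the platform annotation, updated through gene numbers.

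Samples were centred on their medians. For each gene the probe with values in most samples was used, ties going to the highest mean. limma 3.58.1 (R 4.3.3) modelled group and dye, with the array as random block (correlation 0.737), over 15601 features with at least 4 values in each group, adjusted by Benjamini-Hochberg at 0.05. Degrees of freedom count samples, not arrays, so p-values can be too small. On simulated data the fit recovered 36% of log2 changes of 1 and 85% of changes of 2, with 10 false calls among 131. Many changes of 1 would thus be missed. Named were members that passed, the 3 smallest p, the highest and the lowest change of each role. Of the other pathway genes, those that passed and the 5 smallest p were named. Further members are named with values to fill out a family, not always in full, and were chosen after their values were seen. The members, lists, pairs and rules were chosen with earlier results of these data known. Alternatives changed the scaling, filters, block, dye term, probe rule, samples and arrays. Changes given with a gene's probes averaged used only its probes with values in all 12 samples. Python 3.11.15 with pandas 2.3.3 and matplotlib 3.10.9 was used for summaries and figures. The number of arrays limits the precision.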

Additional observations from a re-analysis of the deposited data

Results flagged for a closer look

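Of 90 sets of samples among the named genes (85 of 6 samples, 2 of 5 and 3 of 4), 6 held a sample whose distance to its nearest neighbour took up an unusual part of the set's range; chance gives about 1 in 20. In 4 of these sets it was control 4, which was the lowest control for 21 of the 45 named genes in all. It stood at 2.11 for Arf4 with the next control at 2.89, at 2.01 for Sec13 (next 2.34), at 2.29 for Sec31a (next 2.95) and at -0.64 for Vps52 (next 0.16). Control 4 was also the sample with the fewest measured features, 18434, and the part of that in these values was not tested. Shear 1 was the highest shear sample for Snx3 at 1.07 (next 0.66), and shear 2 the lowest for Vps52 at -1.03 (next -0.59).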

How the results depend on the processing

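Among all features 232 passed, 86.2% of them higher. The count was 72 with array means, 366 without the dye term, 354 with every probe tested, 1716 without the array block and 1451 with the replicate block, and 40 to 230 over samples or arrays left out. Of the calls, 68.6% were higher with common centring, 70.9% with cyclic loess and 69.7% without the array of control 3 and 4. Counted as genes, member calls numbered 0 with quantile normalization and with array means, 2 without the dye term and with every probe tested (3 probes of 2 genes), 20 without the array block, 13 with the replicate block and 0 to 1 over samples or arrays left out. For the other pathway genes they numbered 0 with quantile normalization, with values in at least 2 samples per group, with array means and without the dye term, 10 without the array block, 6 with the replicate block and 0 to 1 over samples or arrays left out. No pair passed in 14 alternatives, which says nothing about stability, since 1 separated pair could not pass. The cause of these differences was not tested, except that fewer samples or arrays enter some fits. The replicate numbers do not pair the samples: correlations of same-numbered samples' deviations were -0.09 to 0.12, while those of samples sharing an array were 0.48 to 0.77. With its probes averaged, Ap3m1 became -0.034, Sec13 -0.20, Snx5 0.10 and Ssr1 0.12, and over samples or arrays left out Ap3s2 ran from -0.54 to 0.46 and Ssr1 from -1.06 to 0.17. The other 40 of 45 named genes kept their sign over these alternatives. No alternative put another probe alone in place of the chosen one, so this does not cover disagreement between probes. Vps26c, Golga1, Snx13 and Arf4 are among the 40, and each had another probe of opposite sign (-0.97, -0.52, -0.25 and -0.20).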
